A study of Mus musculus with 26 samples.

Results

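The 9 genes described here encode the calcium switch of the ventricular sarcomere and the light chains of its motor: troponin C (Tnnc1), troponin I (Tnni3 and Tnni1), troponin T (Tnnt2 and Tnnt1), tropomyosin (Tpm1 and Tpm2) and the ventricular myosin light chains (Myl2 and Myl3). They were chosen by gene symbol from a count table of 15249 genes, and all 9 had a row. RNA of the mouse left ventricle was sequenced after removal of ribosomal RNA in 26 libraries of 4 groups. Mst1Gal3 (5 libraries) combines overexpression of Mst-1, a kinase of the Hippo pathway encoded by Stk4, with a knockout of galectin-3, encoded by Lgals3. MstTg (7 libraries) overexpresses Mst-1 alone and, per the series' design text, serves as a model of dilated cardiomyopathy. Gal3Ko (8 libraries) carries the galectin-3 knockout alone, and wt (6 libraries) carries neither change. All mice had the C57BL6 background strain. The sources used here give neither the promoter of the Mst-1 transgene nor the age or sex of the mice. The labels do not state that replicates are separate mice, so p-values measure the spread between these libraries.

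In striated muscle, myosin heads on the thick filament pull on the actin of the thin filament. Tropomyosin lies along actin and blocks the myosin sites at rest. When calcium binds troponin C, troponin I lets go of actin, and troponin T passes the movement on to tropomyosin, which uncovers the sites. The essential and the regulatory light chain wrap the lever arm of each myosin head and tune its force. The adult mouse ventricle is known to use Tnni3, Tnnt2 and Tpm1, together with Myl2 as its regulatory and Myl3 as its essential light chain. Tnni1, the slow skeletal troponin I, belongs to the fetal heart and slow muscle, Tnnt1 to slow skeletal muscle, and Tpm2, the beta tropomyosin, is low in the adult rodent ventricle and more abundant before birth. Tnnc1 is the troponin C of heart and slow muscle alike.

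Library totals ran from 18580405 to 32663735 counts. Stk4 was 846 to 1066 CPM (counts scaled to a common library size, with TMM factors) in MstTg against 22.4 to 26.1 in wt. Lgals3 was 2.54 to 5.43 CPM in Mst1Gal3 against 50.9 to 60.0 in MstTg, but 1.47 to 2.74 in Gal3Ko against 0.878 to 2.41 in wt. The knockout was thus not visible as a fall of Lgals3 counts between the groups labelled Gal3Ko and wt, and Gal3Ko below names the label. Mitochondrial genes took 17.7% ± 2.79 of counts in MstTg and 31.0% ± 2.36 in wt (SD, n = 7 and 6). In 6 libraries (Mst1Gal3 replicate 3, MstTg replicate 5, Gal3Ko replicates 4, 5 and 8 and wt replicate 5) the atrial genes Myl4, Myl7 and Sln together exceeded 30 CPM, and results were also computed without them. Defining markers of skeletal muscle were scarce: 3 of 12 listed had a row (none of the fast fibre genes Myh1, Myh2, Myh4 and Actn3 did), and their summed level was 22.6 to 46.5 CPM in MstTg and 4.94 to 8.97 CPM in wt.

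The 250 bases before the start site that RefSeq lists (build GRCm38.p6) are printed for the gene that rose most with Mst-1 (Tpm2), the one that fell most (Tnni3), the one that differed between Mst1Gal3 and MstTg (Tnnc1), and those that hold the M-CAT sequence CATTCC, the site of the TEAD factors through which the Hippo pathway acts on transcription. Capitals mark CATTCC or its reverse complement, read 5′ to 3′ on the strand of the gene. Tpm2 lies on the minus strand (chr4:43523555-43523804), as do Tnni3 (chr7:4522529-4522778) and Tpm1 (chr9:67049214-67049463), while Tnnc1 (chr14:31208062-31208311), Tnnt2 (chr1:135836084-135836333) and Myl3 (chr9:110763428-110763677) lie on the plus strand.
Tpm2: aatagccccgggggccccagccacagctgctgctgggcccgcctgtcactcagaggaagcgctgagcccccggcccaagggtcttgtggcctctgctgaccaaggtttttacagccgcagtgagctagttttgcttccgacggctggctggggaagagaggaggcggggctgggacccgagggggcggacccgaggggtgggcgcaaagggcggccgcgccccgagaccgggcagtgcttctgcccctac
Tnni3: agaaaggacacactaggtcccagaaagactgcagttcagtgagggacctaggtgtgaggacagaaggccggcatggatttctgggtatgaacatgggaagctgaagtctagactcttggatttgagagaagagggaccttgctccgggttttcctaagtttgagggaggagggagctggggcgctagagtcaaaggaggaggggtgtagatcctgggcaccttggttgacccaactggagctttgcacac
Tnnc1: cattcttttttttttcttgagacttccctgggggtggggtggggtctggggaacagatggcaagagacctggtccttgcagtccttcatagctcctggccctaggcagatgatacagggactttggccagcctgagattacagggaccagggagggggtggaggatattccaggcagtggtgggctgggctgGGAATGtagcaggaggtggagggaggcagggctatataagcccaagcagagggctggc
Tnnt2: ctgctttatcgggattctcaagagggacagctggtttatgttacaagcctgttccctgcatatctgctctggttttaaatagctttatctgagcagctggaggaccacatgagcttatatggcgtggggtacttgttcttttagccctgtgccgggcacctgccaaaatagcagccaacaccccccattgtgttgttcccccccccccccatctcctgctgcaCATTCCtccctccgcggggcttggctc
Tpm1: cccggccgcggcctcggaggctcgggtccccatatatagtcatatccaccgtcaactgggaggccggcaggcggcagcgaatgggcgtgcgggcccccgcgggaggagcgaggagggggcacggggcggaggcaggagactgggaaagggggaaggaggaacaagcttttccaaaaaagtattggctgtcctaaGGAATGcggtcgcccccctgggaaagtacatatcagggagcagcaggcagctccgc
Myl3: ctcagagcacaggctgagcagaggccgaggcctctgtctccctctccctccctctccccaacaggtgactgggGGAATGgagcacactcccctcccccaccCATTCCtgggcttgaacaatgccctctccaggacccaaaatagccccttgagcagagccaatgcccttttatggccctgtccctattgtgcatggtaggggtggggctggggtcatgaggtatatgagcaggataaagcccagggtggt

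All 9 members had at least 1 such window, and Tnni1, Tnnt2 and Myl2 had 2 each. Both Myl2 windows belong to start sites that lie 8227 and 7762 bases upstream of the first base of the gene in GENCODE M21. They held no CATTCC and are otherwise not described. The start sites of Myl3 (21817 bases), Tnni1 (19987 and 20077 bases) and Tnni3 (1701 bases) lie downstream of the first base of the gene there, and those of the other members within 635 bases of it. CATTCC on either strand was present in the windows of 4 of the other 8 members, against 12.6% of 32851 windows of the same length over all genes. The units differ: the member figure counts genes, Tnni1 and Tnnt2 with 2 windows each, and the other counts single windows. Of the Tnnt2 windows only 1 held it. CATTCC began 27 bases before the start site in Tnnt2, 56 in Tpm1 and 58 in Tnnc1, and in Myl3 it occurred both 177 and 149 bases before it. Those of Tpm2 and Tnni1, the members that rose with Mst-1, and those of Tnni3 and Tnnt1 held no CATTCC. A CArG box (the site of serum response factor, in 1.47% of windows) occurred in Myl3 85 bases before the start site, and the GATA sequence AGATAA (9.99% of windows) in Tnnt2. The binding sequence of MEF2 (3.2% of windows) occurred in none of the windows of these 8 members. Both strands were searched for every sequence. A match describes letters in a window and not binding.

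In wt, the light chains were the most abundant members. Set against the length of the principal transcript, Myl2 averaged 4463 CPM per kb and Myl3 3689.6 CPM per kb, and the libraries of both overlapped. Tnnt2 (2749), Tnni3 (2306) and Tpm1 (2153 CPM per kb) followed, each overlapping the next, and Tnnc1 (1469 CPM per kb) stood below all 3. Far lower came Tpm2 with 6.17 CPM per kb and Tnnt1 with 4.84 CPM per kb, which overlapped, and Tnni1 with 0.169 CPM per kb. In MstTg the order was Myl2 (2481), Tnnt2 (2091), Myl3 (1944), Tpm1 (1731), Tnnc1 (1391) and Tnni3 (1005 CPM per kb), neighbours overlapping throughout, and then Tpm2 (72.4 CPM per kb) apart from both sides. On this scale Tnni3 stood above Tnnc1 in wt without overlap and came after it in MstTg. The order below the light chains depends on the length used, since all annotated exons of Tnnt2 add up to 7752 bases but its principal transcript to 1200 bases. Together the 9 genes took 1.43% ± 0.155 of counts in Mst1Gal3, 1.33% ± 0.114 in MstTg, 1.67% ± 0.0862 in Gal3Ko and 1.70% ± 0.0792 in wt (SD, n = 5, 7, 8 and 6).

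**Figure D1:**
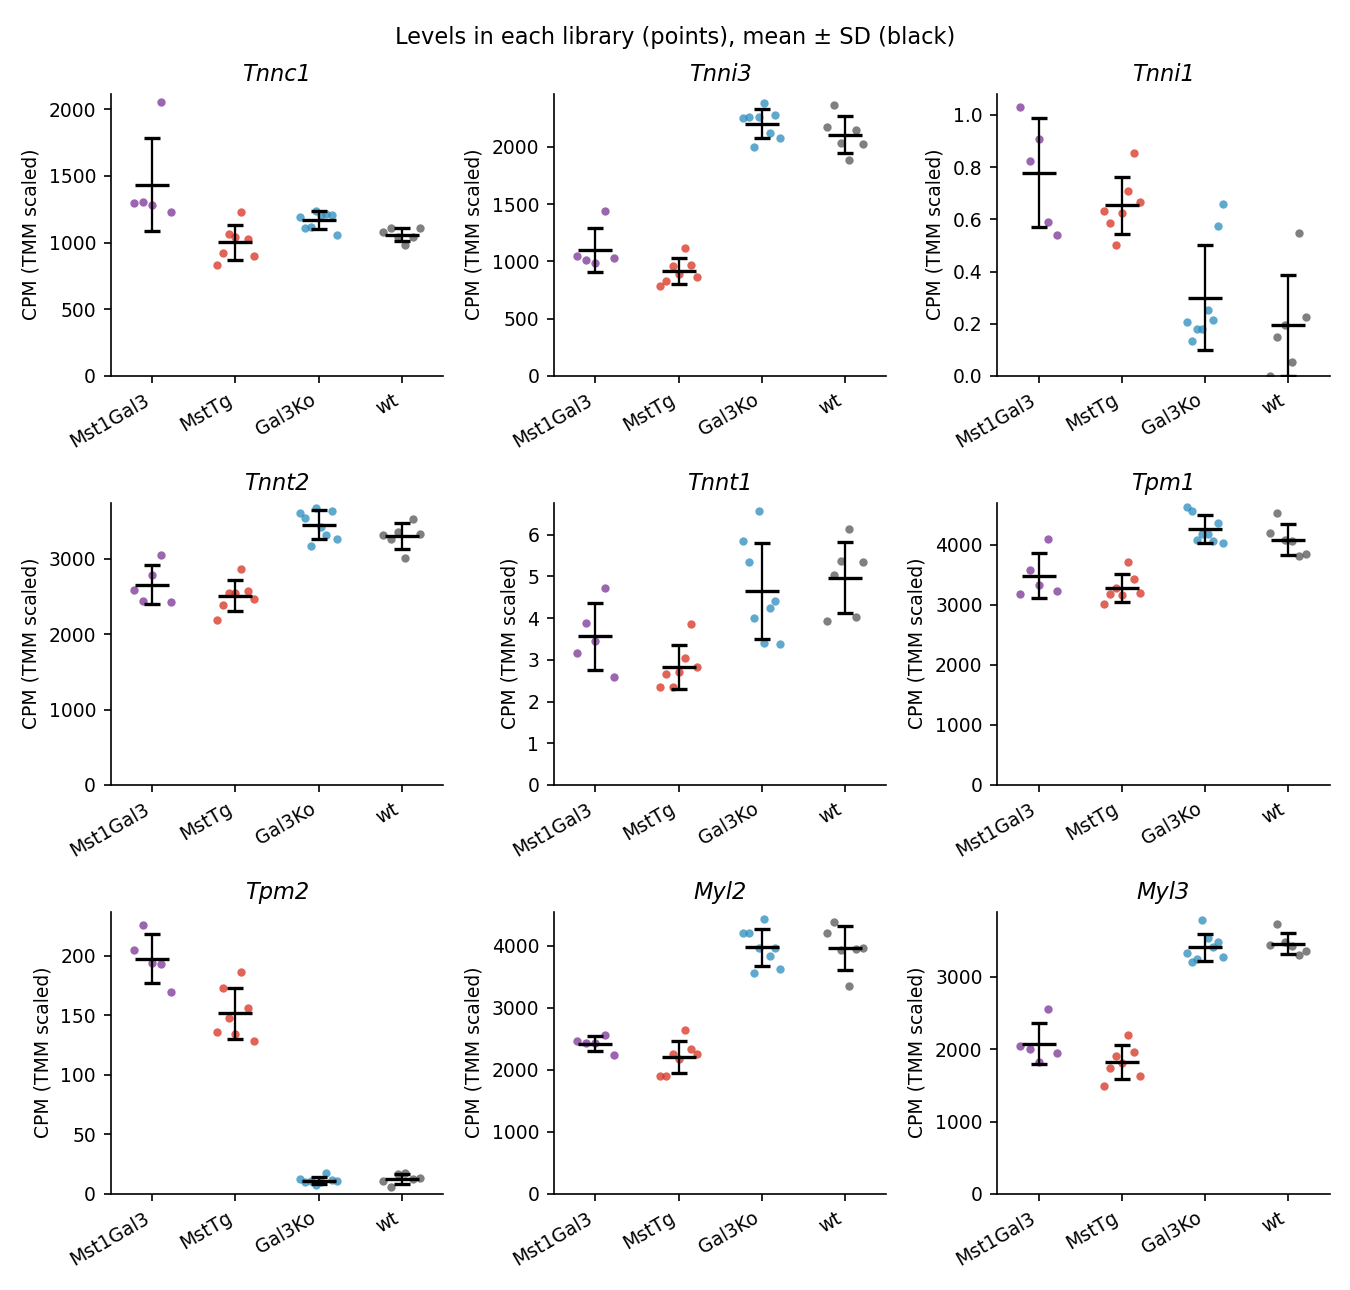
Each panel plots 1 gene, with the TMM-scaled CPM of every library as a point and the mean ± SD of each group in black; axes start at 0. Tpm2 lies at 128 to 187 CPM in MstTg and 5.86 to 17.3 CPM in wt, Tnni3 at 782 to 1115 CPM in MstTg and 1886 to 2362 CPM in wt, and Tnnc1 is highest in Mst1Gal3.

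The first comparison, MstTg against wt, asks what Mst-1 overexpression does to these genes. The members did not move as 1 block. Tpm2 rose 11.7-fold and Tnni1 3.23-fold, while Tnni3, Myl3, Myl2, Tnnt1, Tnnt2 and Tpm1 fell, Tnni3 to 0.436 and Tpm1 to 0.804 times its wt level. Tnnc1 passed the threshold in neither direction. In edgeR's quasi-likelihood test with Benjamini-Hochberg adjustment over all genes, 2 members were higher and 6 lower in MstTg, where 28.2% of all genes were called higher and 26.8% lower, 55.0% in either direction. Scaled by library totals without TMM, 7789 of the 15249 genes were called higher and 2166 lower, and of the members 2 were higher and 5 lower. The median log2 fold change of the 9 was -0.39, against 0.02 over all genes tested. For 7 of the 9 the libraries of MstTg and wt did not overlap, against 32.2% of all genes.

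Among the troponins, the largest estimates were those of troponin I, the inhibitory subunit. Tnni3 (ENSMUSG00000035458, chromosome 7, 4518305 to 4524229, minus strand, build GRCm38) had a lowest, median and highest level of 782, 893 and 1115 CPM in MstTg, and of 1886, 2089.7 and 2362 CPM in wt. The highest MstTg library thus lay well below the lowest wt library. Tnni3 averaged 916 ± 110.1 CPM (SD, n = 7) in MstTg and 2103 ± 162 CPM (SD, n = 6) in wt, a log2 fold change of -1.20 ± 0.08 SE, adjusted p = 3.91e-14 (edgeR). Its annotated span overlaps that of Dnaaf3 on the same strand, and whether reads could be shared was not tested.

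Tnni1 (ENSMUSG00000026418, chromosome 1, 135779434 to 135810989, plus strand) was very scarce in every group, with 13 to 23 counts per library in MstTg and 0 to 12 in wt. The library at 0, wt replicate 1, allows up to 0.139 CPM (3 counts, counting error only). Its lowest, median and highest level was 0.502, 0.632 and 0.856 CPM in MstTg and 0, 0.171 and 0.549 CPM in wt. A single wt library, replicate 5, reached into the MstTg range. The log2 fold change was 1.69 ± 0.40 SE, adjusted p = 5.76e-04 (edgeR), and without the 6 libraries with atrial genes, replicate 5 of wt among them, it was 2.28 ± 0.42, adjusted p = 4.70e-05.

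The share of Tnni1 in the sum of both troponin I genes, per exonic length, was at most 0.0566% in any library of the study. It was 0.0299%, 0.0404% and 0.0507% (lowest, median, highest) in MstTg, and 0%, 0.00452% and 0.0147% in wt. The groups did not overlap, and the means differed by 0.0358 percentage points (exact permutation test over libraries, two-sided, adjusted p = 0.00622 over 16 tests). The unadjusted p of this test, 0.00117, was the smallest that these group sizes allow. Tnni3 thus remained the source of nearly all troponin I counts in MstTg.

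Troponin T, the tropomyosin-binding subunit, fell too in its cardiac form. Tnnt2 (ENSMUSG00000026414, chromosome 1, 135836354 to 135852260, plus strand) lies 25364 bases downstream of Tnni1. Its lowest, median and highest level was 2187, 2540.0 and 2869 CPM in MstTg and 3005, 3319.6 and 3530.4 CPM in wt. The groups did not overlap, but the gap between them was small, and the estimate for Tnnt2 was a log2 fold change of -0.39 ± 0.06 SE, adjusted p = 2.40e-06 (edgeR). Under library totals it was -0.15 ± 0.06, adjusted p = 0.0337.

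The slow skeletal Tnnt1 (ENSMUSG00000064179, chromosome 7, 4504570 to 4516382, minus strand) fell along with Tnnt2. It stood at 2.35, 2.70 and 3.87 CPM in MstTg (lowest, median, highest) and at 3.93, 5.19 and 6.14 CPM in wt. The groups met but did not overlap, and the log2 fold change was -0.81 ± 0.16 SE, adjusted p = 5.81e-05 (edgeR). Tnnt1 starts 1922 bases downstream of the end of Tnni3 on the same strand, and its counts came to 0.310 ± 0.0489% of those of Tnni3 in MstTg and to 0.239 ± 0.0556% in wt (SD, n = 7 and 6). Whether reads running on from Tnni3 contribute to it was not tested. Per length, Tnnt1 made up 0.395% ± 0.0624 of both troponin T genes in MstTg and 0.532% ± 0.115 in wt (SD), with overlapping groups. The difference of -0.136 percentage points passed the threshold (exact permutation test, adjusted p = 0.0373), and lost it without any 1 of 4 wt libraries (replicates 2, 3, 4 or 6) or any 1 of 6 MstTg libraries (all but replicate 6).

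Tnnc1 (ENSMUSG00000091898, chromosome 14, 31208312 to 31211729, plus strand), the calcium sensor, was 835, 1025 and 1232 CPM in MstTg (lowest, median, highest) and 979, 1062 and 1107 CPM in wt. The MstTg libraries spanned both sides of the narrow wt range. The log2 fold change was -0.08 ± 0.09 SE, adjusted p = 0.491 (edgeR), with a 95% interval of -0.270 to 0.111. This interval does not reach the estimates for Tnni3 and Tnnt2, but its lower end meets the interval of Tnnt2 (-0.524 to -0.265). Under library totals the Tnnc1 estimate was 0.17 ± 0.09, adjusted p = 0.117. Its span overlaps that of Nisch on the other strand.

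With Tnnc1 near its wt level and Tnni3 and Tnnt2 below theirs, the proportions of troponin transcripts shifted. The ratio of Tnnc1 to Tnni3, per kb of principal transcript, averaged 1.38 ± 0.0554 in MstTg and 0.639 ± 0.0349 in wt (SD), and ranged from 1.31 to 1.48 in MstTg and from 0.593 to 0.692 in wt. The ratio of Tnnt2 to Tnni3 averaged 2.09 ± 0.0917 in MstTg and 1.20 ± 0.0791 in wt (SD). Neither ratio overlapped between MstTg and wt. Both were chosen after the values were seen and are given without a test; like the paralogue shares, they do not depend on the scaling between libraries, while their absolute size depends on the lengths used.

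**Figure D2:**
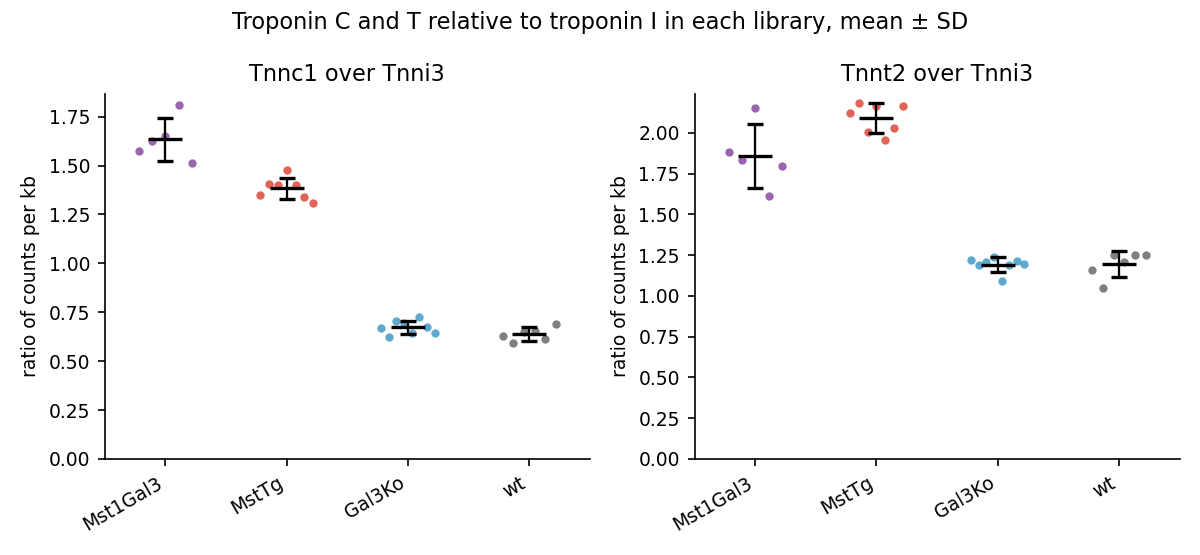
Ratios of counts per kb of principal transcript in every library (points), with the mean ± SD of each group in black and axes that start at 0. Tnnc1 over Tnni3 lies at 1.51 to 1.81 in Mst1Gal3, 1.31 to 1.48 in MstTg, 0.622 to 0.724 in Gal3Ko and 0.593 to 0.692 in wt.

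Tropomyosin showed the widest split between paralogues. Tpm1 (ENSMUSG00000032366, chromosome 9, 67022590 to 67049406, minus strand), the alpha tropomyosin, was 3020.3, 3193 and 3721 CPM in MstTg (lowest, median, highest) and 3812, 4072 and 4528 CPM in wt. The groups nearly touched without overlapping, and the log2 fold change was -0.32 ± 0.06 SE, adjusted p = 7.14e-05 (edgeR). Scaled by library totals without TMM, which moves the median of all genes in this comparison to 0.27, the estimate for Tpm1 was -0.07 ± 0.06, adjusted p = 0.303, so its call rests on the scaling; relative to that median it remained below 0.

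Tpm2 (ENSMUSG00000028464, chromosome 4, 43514711 to 43523765, minus strand), the beta tropomyosin, went the other way. Its lowest, median and highest level was 128, 148 and 187 CPM in MstTg and 5.86, 13.0 and 17.3 CPM in wt. The lowest MstTg library was 7.43-fold above the highest wt library. This came to a log2 fold change of 3.55 ± 0.19 SE, adjusted p = 1.38e-14 (edgeR), rank 114 of 15249 genes from the highest. Per exonic length, Tpm2 made up 8.23%, 9.13% and 10.8% (lowest, median, highest) of both tropomyosin genes in MstTg and 0.288%, 0.754% and 0.940% in wt. The shares did not overlap, and the means differed by 8.61 percentage points (exact permutation test, adjusted p = 0.00622). On the length of the principal transcripts the shares averaged 4.004% ± 0.399 in MstTg and 0.289% ± 0.0993 in wt, so Tpm1 remained the main tropomyosin on either scale.

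Tpm2 is also a smooth muscle gene, and in bulk tissue more cells of a type and more RNA per cell cannot be told apart. The summed level of 12 smooth muscle and pericyte markers was 804 to 959.6 CPM in MstTg and 969 to 1257 CPM in wt. Of the 12, 2 rose and 5 fell (median log2 fold change -0.17), among them Cspg4 (1.91 ± 0.11, here and for the other genes below the edgeR log2 fold change ± SE), a pericyte proteoglycan, and Rgs5 (-1.04 ± 0.09), a pericyte regulator of G protein signalling. All 10 fibroblast markers rose (median 1.26), with a summed level of 3959 to 5048 CPM in MstTg and 1579 to 2239.5 CPM in wt. Of 9 cardiomyocyte markers, 7 fell and 1 rose (median -0.23), and their sum was 31457 to 41906 CPM in MstTg and 39342 to 44530.2 CPM in wt. Of 9 endothelial markers, 7 fell and 0 rose (median -0.36), and their sum was 657 to 784 CPM in MstTg and 883 to 1062 CPM in wt, without overlap. Of 8 macrophage markers 2 rose and 0 fell, with overlapping sums (250.4 to 303 CPM in MstTg and 194 to 366 CPM in wt), and of 5 red blood cell genes 0 were called. Over all genes 28.2% were called higher and 26.8% lower. The part of the marker shifts in the members' changes was not tested.

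Both ventricular light chains fell. Myl2 (ENSMUSG00000013936, chromosome 5, 122100951 to 122113472, plus strand), the regulatory light chain, was 1895, 2249.6 and 2637 CPM in MstTg (lowest, median, highest) and 3357, 3963 and 4389 CPM in wt, a log2 fold change of -0.85 ± 0.07 SE, adjusted p = 8.67e-12 (edgeR). Myl3 (ENSMUSG00000059741, chromosome 9, 110741861 to 110769798, plus strand), the essential light chain, was 1494, 1813 and 2197 CPM in MstTg and 3305, 3435 and 3732 CPM in wt, a log2 fold change of -0.92 ± 0.07 SE, adjusted p = 3.26e-12 (edgeR). Neither gene's groups overlapped. The log2 ratio of Myl2 to Myl3 per exonic length was 0.35 ± 0.10 in MstTg and 0.26 ± 0.12 in wt (SD), and the difference of 0.08 did not pass the test (exact permutation test, adjusted p = 0.461). Myl2 overlaps Ccdc63, and Myl3 overlaps Pth1r, each on the other strand.

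Genes that work beside the members moved in both directions, as did all genes (28.2% called higher and 26.8% lower). Of 16 other thin filament genes, 9 rose and 4 fell (median log2 fold change 0.19, against 0.02 over all genes). The 4 with the smallest p were Acta1, the skeletal alpha actin (3.89 ± 0.36), Neb, nebulin (2.67 ± 0.21), Tmod4, a pointed-end capping tropomodulin (-2.17 ± 0.11), and Lmod3, a leiomodin (-0.34 ± 0.07). Tpm3, another tropomyosin gene, rose slightly (0.25 ± 0.06), and Tpm4 (-0.05 ± 0.06) did not pass the test. Of 13 other thick filament genes, 6 rose and 3 fell (median 0.26), led by the M-band protein Myom3 (5.35 ± 0.12), Mybph (8.93 ± 0.27), a homologue of myosin binding protein C, and the slow myosin heavy chains Myh7 (2.45 ± 0.31) and Myh7b (-0.60 ± 0.16).

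Of the 5 fast skeletal paralogues of the members, Tnnt3 and Myl1 had a row, and both rose (Tnnt3 1.64 ± 0.31, Myl1 0.82 ± 0.15), while Tnni2, Tnnc2 and Mylpf had none. Tnnt3 averaged 1.13 CPM in MstTg and 0.348 CPM in wt.

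Among 15 kinases and phosphatases that act on light chains or troponin I, 8 fell and 5 rose (median log2 fold change -0.37). Over all genes 26.8% were called lower and 28.2% higher. Mylk4, a myosin light chain kinase, fell most (-2.37 ± 0.11), to 29.7 CPM in MstTg against 154 CPM in wt. Tnni3k, a cardiac kinase named for its interaction with troponin I, fell by 0.983 ± 0.05, and Prkce, protein kinase C epsilon, by 0.831 ± 0.06 on the log2 scale. Ppp1r12a, the targeting subunit of myosin phosphatase, rose (0.51 ± 0.06). The cardiac light chain kinase Mylk3 fell by less (-0.40 ± 0.07). A list of 12 slow muscle genes, which holds 5 of the members, had 7 lower, 3 higher and 2 not called (median -0.26). This tally includes the regulators Sox6 and Tead1, which are not slow isoforms. Among the slow isoforms no common direction was seen: Atp2a2, the calcium pump SERCA2, fell (-0.92 ± 0.07) where Myh7 rose.

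**Figure D3:**
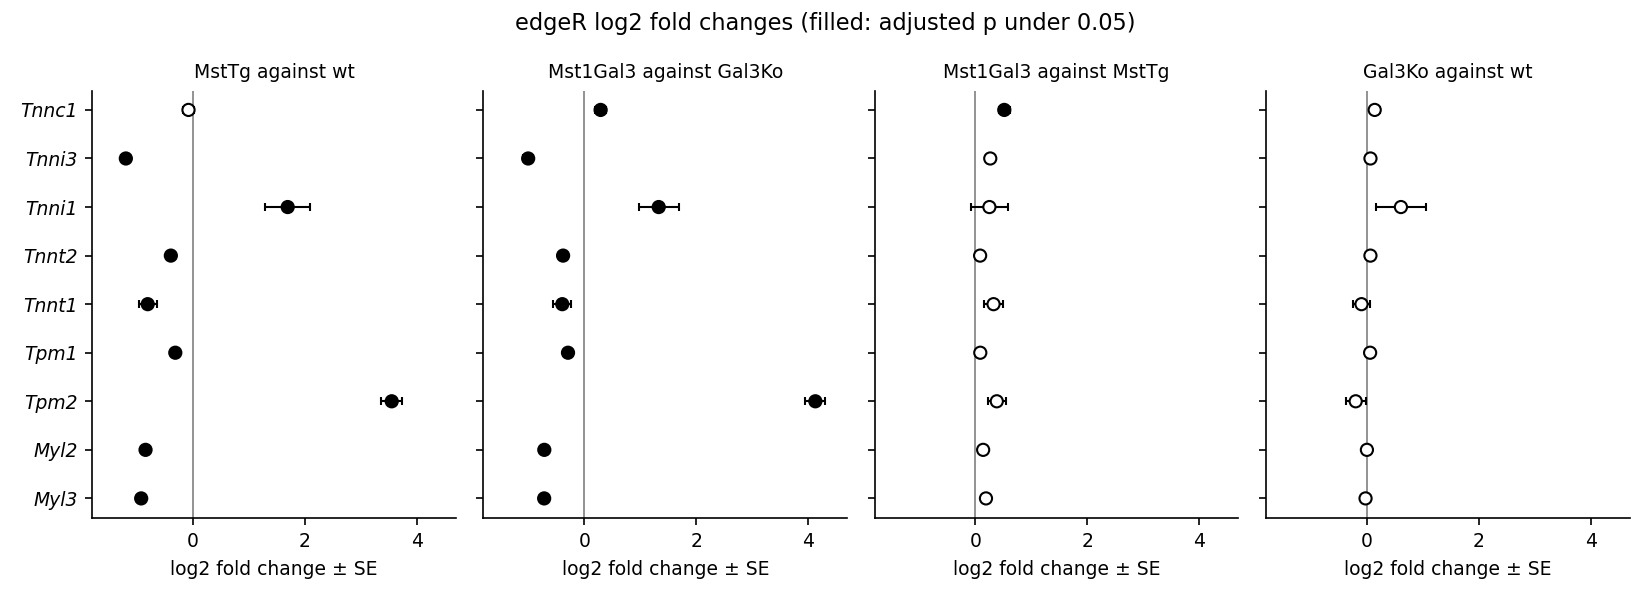
edgeR log2 fold changes (points) with their SE (bars) for the 9 members in 4 comparisons, filled where the adjusted p is under 0.05. The first 2 panels, both for the Mst-1 transgene, run from -1.20 (Tnni3) to 4.13 (Tpm2), while the other panels, both for the galectin-3 knockout, hold 1 filled point, Tnnc1 in Mst1Gal3 against MstTg.

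The second comparison, Mst1Gal3 against Gal3Ko, puts the same question with the galectin-3 knockout in both groups. It shares no library with the first. Here 3 members were higher and 6 lower (edgeR), against 26.9% and 25.6% of all genes (52.5% in either direction), and 5 did not overlap, against 31.1%. Under library totals 7374 genes were called higher and 1929 lower, and 3 members were higher and 3 lower. The median log2 fold change was -0.38, against 0.01 over all genes tested.

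Tpm2 had 205, 226, 194, 193 and 169.9 CPM in the 5 Mst1Gal3 libraries, against 7.70, 10.6 and 17.5 CPM (lowest, median, highest) in Gal3Ko. The lowest Mst1Gal3 library was 9.73-fold above the highest Gal3Ko library, and the log2 fold change was 4.13 ± 0.18 SE, adjusted p = 2.69e-16, 17.5-fold. Its share of the tropomyosin counts per length was 12.6%, 12.3%, 11.5%, 9.53% and 10.5% in Mst1Gal3 and 0.409% to 0.948% in Gal3Ko, a difference of 10.7 percentage points (exact permutation test, adjusted p = 0.00622). Tpm1 fell by 0.289 ± 0.06 on the log2 scale (adjusted p = 3.40e-04), and its groups overlapped through Mst1Gal3 replicate 4. As in the other Mst-1 comparison, its call was lost under library totals (-0.05 ± 0.06, adjusted p = 0.456; median of all genes 0.24).

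Tnni3 had 1043, 1013, 982, 1439 and 1026 CPM in Mst1Gal3, against 1999.7, 2254 and 2384 CPM (lowest, median, highest) in Gal3Ko. Replicate 4 stood above the other Mst1Gal3 libraries and still below every Gal3Ko library. edgeR gave -1.001 ± 0.09 SE, adjusted p = 1.27e-11 (log2 fold change). Tnni1 had 14 to 26 counts per library in Mst1Gal3 and 2 to 16 in Gal3Ko, with overlapping levels (0.540 to 1.03 CPM in Mst1Gal3 and 0.133 to 0.660 CPM in Gal3Ko) and a log2 fold change of 1.33 ± 0.36 SE, adjusted p = 0.00212. The highest Gal3Ko levels were those of replicates 7 and 8. The Tnni1 share was 0.0420% ± 0.0145 in Mst1Gal3 and 0.00787% ± 0.00539 in Gal3Ko (SD), a difference of 0.0341 percentage points (exact permutation test, adjusted p = 0.00622).

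Tnnt2 was 2585, 2445, 2785, 3050.1 and 2426 CPM in Mst1Gal3 and 3173 to 3672 CPM in Gal3Ko, without overlap (-0.38 ± 0.06 SE, adjusted p = 9.95e-06). Tnnt1 was 2.59 to 4.72 CPM in Mst1Gal3 and 3.38 to 6.56 CPM in Gal3Ko, with overlap, and its fall was close to the threshold (-0.39 ± 0.16 SE, adjusted p = 0.0421). The call was lost in a fit of these groups alone, without mitochondrial genes, under library totals (-0.15 ± 0.16, adjusted p = 0.422), without the 6 libraries with atrial genes, and without any 1 of Gal3Ko replicates 1, 2 and 4 or Mst1Gal3 replicates 1, 3 and 5. Its share of troponin T was 0.466% ± 0.0779 in Mst1Gal3 and 0.468% ± 0.0970 in Gal3Ko (SD; exact permutation test, adjusted p = 0.993). Under library totals the fall of Tnnt2 also missed the threshold (-0.14 ± 0.06, adjusted p = 0.0549).

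Myl2 was 2463, 2428, 2439, 2556 and 2242 CPM in Mst1Gal3 and 3569.9 to 4429 CPM in Gal3Ko (-0.71 ± 0.08 SE, adjusted p = 1.33e-09; under library totals -0.48 ± 0.07, adjusted p = 7.26e-07). Myl3 was 2049, 2004, 1818, 2559 and 1941 CPM in Mst1Gal3 and 3205 to 3787 CPM in Gal3Ko (-0.72 ± 0.08 SE, adjusted p = 3.11e-09). Neither overlapped, and their log2 ratio was 0.30 ± 0.15 in Mst1Gal3 and 0.29 ± 0.12 in Gal3Ko (SD; exact permutation test, adjusted p = 0.964). Mylk4 (-2.53 ± 0.12), Tnni3k (-0.85 ± 0.05) and Prkce (-0.79 ± 0.06) fell here too. Of the 15 kinases and phosphatases 7 fell and 7 rose, where 25.6% of all genes were called lower and 26.9% higher.

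Tnnc1 had 1297, 1303, 1281, 2056 and 1227 CPM in Mst1Gal3, against 1056, 1202 and 1239 CPM (lowest, median, highest) in Gal3Ko. Mst1Gal3 replicate 4 stood far above the other libraries, of which replicate 5 lay within the Gal3Ko range. The log2 fold change of 0.29 ± 0.09 SE, adjusted p = 0.00902 passed the threshold, as it did under library totals (0.53 ± 0.09, adjusted p = 1.69e-05), and without replicate 4 it was 0.13 ± 0.07, adjusted p = 0.145, so this call rests on that library. In it all members except Tpm2 and Tnni1 were highest of the group. The ratio of Tnnc1 to Tnni3 per kb was 1.57, 1.63, 1.65, 1.81 and 1.51 in Mst1Gal3, against 0.622 to 0.724 in Gal3Ko. Replicate 4 had the highest ratio, and all 5 exceeded the Gal3Ko libraries.

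**Figure D4:**
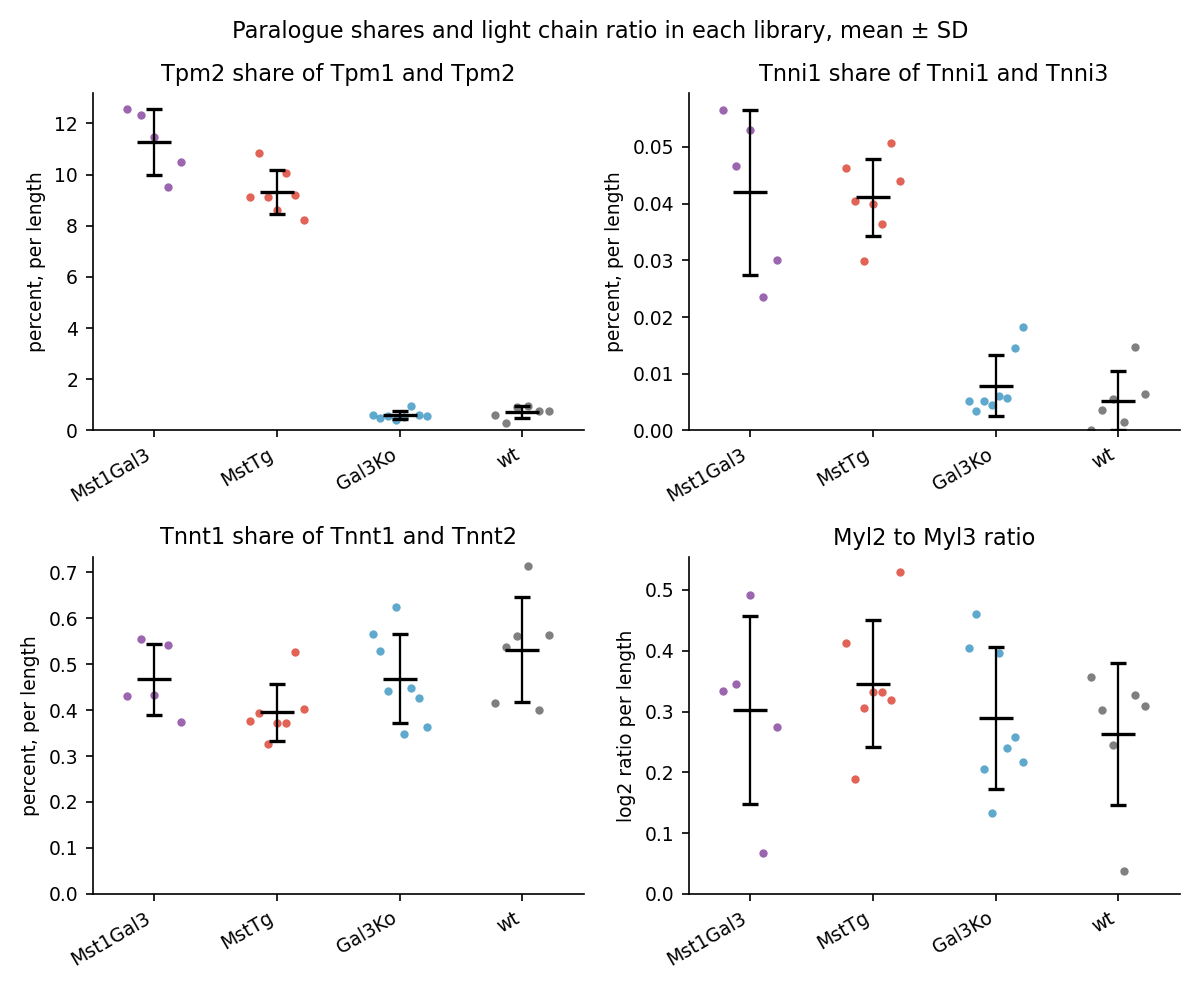
Share of the less abundant paralogue in its pair (percent, counts per exonic length) and the log2 ratio of Myl2 to Myl3 in every library (points), with the mean ± SD of each group in black and axes that start at 0. The Tpm2 share averages 11.3% in Mst1Gal3, 9.32% in MstTg, 0.588% in Gal3Ko and 0.710% in wt, and the light chain ratio overlaps between all groups.

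Whether the knockout changes the members outside the Mst-1 background is asked by Gal3Ko against wt. None of the 9 was called (edgeR, and 0 by DESeq2 or limma-voom), against 0.354% of all genes. These were 27 genes higher and 27 lower, against 16 and 45 under library totals, where none of the 9 was called either. An unadjusted p under 0.05 was reached by 0 members, and the share of all genes at that threshold is not given. The groups of all 9 overlapped, and over all genes only 0.289% did not. The 95% intervals of the log2 fold change lay between -0.17 and 0.23 for Tnni3, Tnnt2, Tpm1, Myl2 and Myl3, and that of Tnnc1 was -0.04 to 0.33. They were wider for the scarce ones: -0.57 to 0.18 for Tpm2, -0.40 to 0.22 for Tnnt1 and -0.31 to 1.53 for Tnni1, so the interval of Tnni1 holds rises up to its upper end. None of the 4 paralogue measures passed the test (exact permutation tests, adjusted p of 0.461 for the Tpm2 share, 0.461 for the Tnnt1 share, 0.533 for the Tnni1 share and 0.838 for the Myl2 to Myl3 ratio).

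Mst1Gal3 against MstTg asks the same within the Mst-1 background. Only Tnnc1 was called of the 9 members, higher in Mst1Gal3 (edgeR). Over all genes 2.54% were called higher and 4.89% in either direction (387 genes higher and 359 lower, against 136 and 558 under library totals). An unadjusted p under 0.05 was reached by 4 members. The share of all genes at that unadjusted threshold is not given, so this count cannot be set against it. The groups of all 9 overlapped, and over all genes 3.31% did not. Tnnc1 was 1227 to 2056 CPM in Mst1Gal3 and 835 to 1232 CPM in MstTg, where 1 library (replicate 5, 1232 CPM) reached the level of Mst1Gal3 replicate 5. The log2 fold change was 0.51 ± 0.10 SE, adjusted p = 8.96e-04, 1.43-fold, and without Mst1Gal3 replicate 4 it was 0.35 ± 0.07, adjusted p = 0.00420. The call held with every other library left out in turn, under library totals (0.44 ± 0.10, adjusted p = 0.00502) and in DESeq2. The Tnnc1 to Tnni3 ratio was 1.51 to 1.81 in Mst1Gal3 and 1.31 to 1.48 in MstTg, without overlap.

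Tnnc1 lies 16.2 Mb from Lgals3 on chromosome 14. Of the 274 genes within 20 Mb of Lgals3, 18.2% were called in this comparison, against 4.64% of genes elsewhere, and in Gal3Ko against wt 9.12% were called, against 0.194% elsewhere. The part of this region in the Tnnc1 result was not tested.

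The other 8 members had estimates above 0 without passing the threshold. The log2 fold change of Tnni3 was 0.26 ± 0.08 SE, adjusted p = 0.0652 (edgeR); its Mst1Gal3 libraries, replicate 4 aside, lay within the MstTg range, and without that library the value was 0.15 ± 0.07, adjusted p = 0.344. Without the 6 libraries with atrial genes Tnni3 (0.36 ± 0.09, adjusted p = 0.0142) and Myl3 (0.28 ± 0.08, adjusted p = 0.0279) passed it. Tpm2 was 169.9 to 226 CPM in Mst1Gal3 and 128 to 187 CPM in MstTg (0.38 ± 0.17 SE, adjusted p = 0.206). Myl2 (0.14 ± 0.08), Myl3 (0.19 ± 0.08), Tnnt1 (0.32 ± 0.17), Tnnt2 (0.08 ± 0.07), Tpm1 (0.09 ± 0.07) and Tnni1 (0.25 ± 0.32) had adjusted p-values of 0.182 to 0.756.

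The Tpm2 share of tropomyosin was 12.6%, 12.3%, 11.5%, 9.53% and 10.5% in Mst1Gal3 and 8.23%, 9.13% and 10.8% (lowest, median, highest) in MstTg. The ranges overlapped, since MstTg replicates 2 and 5 exceeded the lowest Mst1Gal3 library. The difference of 1.96 percentage points just passed (exact permutation test, adjusted p = 0.0404). It did not pass as a difference of medians or without the libraries with atrial genes, and was lost in 8 of the 12 leave-one-out settings. The Tnni1 share (adjusted p = 0.964), the Tnnt1 share (0.219) and the Myl2 to Myl3 ratio (0.768) did not pass the exact permutation test. Of the kinases and phosphatases none of 15 was called, against 4.89% of all genes. Among the filament partners Myh6, the main heavy chain of the adult mouse ventricle, rose (0.41 ± 0.09), as did Myom3 (0.34 ± 0.09) and Tmod4 (0.57 ± 0.12), and Tmod3 (-0.38 ± 0.06) and Tpm3 (-0.22 ± 0.06) fell.

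Whether the Mst-1 response of a member differed between the galectin-3 backgrounds was tested by the interaction. None of the 9 was called (edgeR; 0 by DESeq2 or limma-voom), against 0.656% of all genes. At an unadjusted p under 0.05 stood Tnnc1 (0.37 ± 0.13 SE, adjusted p = 0.203) and Tpm2 (0.58 ± 0.24 SE, adjusted p = 0.332). The share of all genes at that unadjusted threshold is not given. The largest remaining estimate among the abundant members was that of Myl3 (0.21 ± 0.11). The 95% interval for Tnnt2, the narrowest of the 9, was -0.17 to 0.20. Intervals of the scarce members were wider, with -1.49 to 0.77 for Tnni1, -0.05 to 0.88 for Tnnt1 and 0.07 to 1.09 for Tpm2.

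Within groups, some members varied together from library to library. The correlation of log2 CPM after removal of the group means, over 26 libraries, was 0.90 for Tnni3 and Tnnc1, 0.889 for Tnnc1 and Myl3 and 0.871 for Tnni3 and Myl3, and 0.0160 for Tpm2 and Tnnc1 and -0.205 for Tpm2 and Tnni3. Mst1Gal3 replicate 4, the highest library of its group for Tnni3, Tnnc1 and Myl3, is included, and values without it are not given. Over all 26 libraries, group differences included, Tnni3 and Tnnc1 correlated at 0.177 and Tnni3 and Tpm2 at -0.944. These values share library, scaling and depth and describe these libraries.

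The genes whose log2 CPM ran most closely with a member over the 26 libraries, which share the 4 group levels, differed by member. For Tnni3 they were Sdhb (Pearson r = 0.993), Atp5h (0.993) and Ndufb9 (0.991), which encode subunits of the respiratory chain and of ATP synthase. For Myl3 they were Slc25a4 (0.992), the mitochondrial ADP/ATP carrier, Prdx5 (0.992) and Uqcrc1 (0.991), a subunit of complex III. For Myl2 they were Akap1 (0.984), Acadm (0.980) and Hrc (0.978), a calcium-binding protein of the sarcoplasmic reticulum. For Tpm2 they were Mustn1 (0.993), Myom3 (0.989) and Cspg4 (0.988). Tnnt2 ran with Atp5h, Gadd45gip1 and Cox6a2 (r of 0.943 to 0.946) and Tpm1 with Fth1, Gadd45gip1 and Nudt3 (0.931 to 0.946). The closest genes were weaker for Tnnt1 (Mrpl43, r = 0.903), Tnni1 (Acbd4, 0.858) and Tnnc1 (Msra, 0.847). With the group means removed, the correlations of the genes named above were lower. They were 0.869 to 0.905 for those of Tnni3, 0.895 to 0.918 for Myl3, 0.724 to 0.801 for Myl2, 0.657 to 0.679 for Tnnt2 and 0.731 to 0.797 for Tpm1. For Tpm2 they were 0.709 with Mustn1, 0.453 with Myom3 and 0.650 with Cspg4, and for Mrpl43, Acbd4 and Msra 0.757 with Tnnt1, 0.693 with Tnni1 and 0.681 with Tnnc1. The next closest genes of Tnnc1 went the other way. Mrpl52 (r = 0.824 over the 26 libraries) and Chmp2a (0.818) each correlated with it at 0.866 once the group means were removed.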

How the data were processed

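Ribosome-depleted RNA of the left ventricle (200 ng of total RNA, directional libraries per the labels' protocols) was measured in 26 libraries. The authors deposited unnormalized counts of reads for each gene. According to the submitters' processing notes, the tools were featureCounts, STAR and bcl2fastq 2.19.1.403, with GRCm38 as build; the sources used here give no other version, annotation release or strand setting. No gene of the table averaged under 10 counts per library. Counts were tested with edgeR 4.0.16 in R 4.3.3 (TMM factors, filterByExpr, which removed 0 genes, robust quasi-likelihood test, two-sided, Benjamini-Hochberg adjustment over 15249 genes, threshold 0.05), with all 26 libraries in 1 fit and 22 residual degrees of freedom, which also set the 95% intervals. The script was tested on simulated data. Levels are CPM on TMM-scaled library sizes.

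Shares and ratios used counts per exonic length (GENCODE M21, GRCm38) and exact permutation tests over libraries, adjusted over 16 tests (SciPy 1.17.1). The interaction is (Mst1Gal3 minus MstTg) minus (Gal3Ko minus wt). No pair of replicates agreed within sampling noise (lowest chi-square per degree of freedom 4.97). Members of a paralogue pair shared no stretch of 50 bases, while Tnni1 and Tnnt2, which are not such a pair, shared 2. Whether reads of Tnnt2 contribute to the few Tnni1 counts was not tested. The floor of 3 counts covers counting error only: without molecular identifiers, PCR reads are not independent. The intervals of the log2 fold changes come from the edgeR fit and include the spread between libraries. Members and gene lists were chosen with earlier results of these data known. Named are all members, Stk4 and Lgals3, up to 4 genes of a list by smallest p, and up to 3 genes most like each member (mean of at least 1 CPM). Other list genes were named after their values were seen. Alternatives were DESeq2 1.42.0, limma-voom 3.58.1, library totals, other filters, groups alone, a replicate block and leaving out libraries; 2 of them, leaving out the libraries with atrial genes and the principal transcript length, were chosen after seeing the data.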

Additional observations from a re-analysis of the deposited data

Results flagged for a closer look

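In 52 sets of values (a member or a share in 1 group), 6 had a library that stood apart from the others of its group. Chance marks about 1 in 20 such sets if they are independent. These sets share libraries and counts, so the number marked cannot be set against that rate. In Mst1Gal3, replicate 4 was highest for Tnni3 with 1439 CPM, next to 1043 CPM in the nearest library, and for Tnnc1 with 2056 CPM, next to 1303 CPM. In Gal3Ko, replicate 6 was highest for Tpm2 with 17.5 CPM, next to 12.3 CPM, and for the Tpm2 share with 0.948%, next to 0.599%. In MstTg, replicate 6 was highest for the Tnnt1 share with 0.526%, next to 0.402%, and in wt, replicate 4 was lowest for the log2 ratio of Myl2 to Myl3 with 0.0373, next to 0.245.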

How the results depend on the processing

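No member changed direction while called, and the direction of every called share was kept under the alternatives run. Filtering at a mean of at least 1 CPM leaves out Tnni1, so that 1 member was higher in MstTg than in wt. In Mst1Gal3 against MstTg, 2 members were higher in a fit of these groups alone (Tpm2 added) and in DESeq2 (Tnni3 added), 3 without the libraries with atrial genes, and 1 to 3 with 1 library left out (3 without MstTg replicate 5, with Tnni3 and Myl3, and 2 without Mst1Gal3 replicate 3, with Tnni3). Under library totals, 3 members in place of 6 were lower in Mst1Gal3 than in Gal3Ko; this scaling moves the median of all genes, and the uncalled Tnnc1 estimate for MstTg against wt was then 0.17.

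The Tpm2 share in Mst1Gal3 minus MstTg was 2.35 points as a difference of medians, 2.03 without the libraries with atrial genes and 1.64 to 2.39 with 1 library left out. Without the libraries with atrial genes this difference did not pass (exact permutation test, adjusted p = 0.102). The Tnnt1 share in MstTg minus wt was -0.163 to -0.100 points with 1 library left out, and in Mst1Gal3 minus MstTg 0.0495 to 0.0944 (0.0930, past the threshold, without MstTg replicate 6). Without the libraries with atrial genes, which leaves 4 and 5 libraries, the Tnni1 and Tpm2 shares in Mst1Gal3 minus Gal3Ko were 0.0324 and 10.6 points; their libraries did not overlap, and the exact p was the smallest that 4 against 5 allows (0.0159, adjusted p = 0.0508), so that miss follows from the number of libraries. The cause of the other changes was not tested unless stated.

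Of 34 same-numbered pairs of libraries, 11 correlated above 0.1 (range -0.28 to 0.234). Pairs of different numbers were not set beside them, so these values cannot tell whether replicate numbers pair the libraries. With the replicate block no member's call changed in edgeR. For the shares the replicate block gave differences of 0.0353 (Tnni1) and 8.79 (Tpm2) for MstTg against wt, 0.0371 and 10.8 for Mst1Gal3 against Gal3Ko, -0.138 (Tnnt1) for MstTg against wt and 1.72 (Tpm2) for Mst1Gal3 against MstTg; its exact test over 5 or 6 pairs cannot pass the adjusted threshold. Depth limits Tnni1 most, with 0 to 26 counts per library.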
